A study of Leucoraja erinaceus with 4 samples.

Results

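Among 23105 assembled features of the axial skeleton of little skate embryos (Leucoraja erinaceus), 101 were more abundant in synarcual than in post-synarcual tissue, by 2-fold or more, at stage 33 and again at stage 28. A feature is a gene of a transcriptome assembled de novo from short reads. The members were chosen on counts: a synarcual excess of 2-fold or more in scaled level at both stages, at least 50 counts in the higher library of each stage's pair, and no large stage difference. A large stage difference is a mean stage fold of 4 or more in a feature that reaches 200 counts in some library. RNA came from the stage 33 synarcual, the stage 33 post-synarcual, the stage 28 synarcual and the stage 28 post-synarcual, with 1 library each, after nervous tissue and trunk muscle had been dissected away. The protocol names males at both stages and does not make clear how many embryos a library holds. Strain, genotype and treatment are not given. The labels set the groups apart by stage and region, and a stage cannot be told apart from the animals dissected at it.

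The synarcual is the rigid block of fused cartilage at the front of the vertebral column of skates and rays, and the post-synarcual skeleton behind it keeps separate vertebrae. Both are cartilage formed around the notochord and neural tube, and in vertebrates generally the identity of a position along this axis is set early in the embryo, with cartilage matrix accumulating later. Skates keep a cartilaginous skeleton for life. No feature is paired with a gene name in the files, and a search of the RefSeq gene table of the species matched 0 of the 101 identifiers, so no function or cell type can be given for any of them. The dissected tissue was therefore not checked against cartilage, muscle or nerve markers, and no sequence is shown. In bulk tissue, a different share of a cell type and a different amount of RNA per cell cannot be told apart.

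Total counts per library ranged from 3922525 to 5092346. Trimmed-mean (TMM) scaling, which sets the bulk of features level between libraries, was used for all folds unless another unit is named. With it, the median fold of the 14668 features that reached 10 counts in at least 2 libraries lay between -0.04 and 0.004 on the log2 scale in all 4 comparisons of region or stage. Because each group has 1 library and the region difference chose the members, no test was made and all region values are descriptions. The intervals are exact 95% Clopper-Pearson intervals and cover counting error only, since 1 library per group holds no measure of variation between animals or libraries. Reads without molecular identifiers are not independent molecules, so the intervals may be too narrow even for counting error.

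The 101 features are a small part of the transcriptome. At stage 33, 6.31% of the 9003 features with enough counts were higher in the synarcual by 2-fold or more, and at stage 28, 4.39% of 10582 were. Enough counts at both stages were found for 8206 features, of which 111 (1.35%) were higher at both. Leaving out 10 with a large stage difference, 7 of them higher at stage 33 and 3 higher at stage 28, gave the 101 members, or 1.30% of the 7756 features that passed the stage filter. The minimum count of the rule means that all 101 also passed the filter of 10 counts in 2 libraries. The same rule in the opposite direction found 43 features (0.554%), after 100 of 143 (1.74% of the 8206) had been left out for their stage difference. Of those 100, 99 were higher at stage 33.

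**Figure D1:**
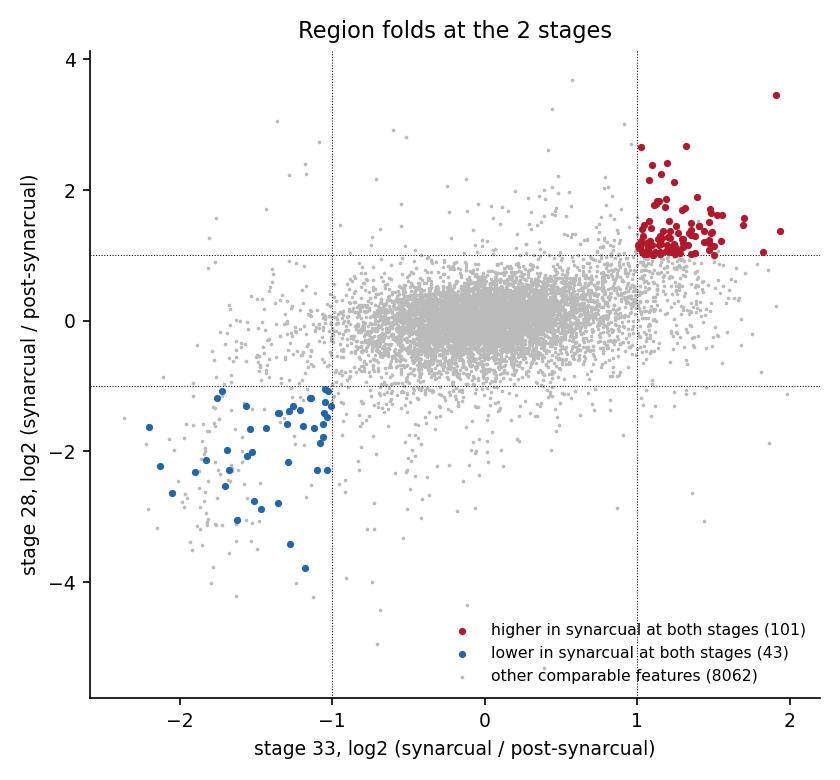
Each point is a feature with enough counts at both stages, with its log2 ratio of synarcual over post-synarcual at stage 33 on the x axis and at stage 28 on the y axis. The 101 members (red) lie beyond the dotted thresholds at 1 on both axes, the 43 features of the opposite direction (blue) lie beyond -1, and the other 8062 features (grey) include those left out for their stage difference. The members end below 2 on the stage 33 axis and reach 3.46 on the stage 28 axis.

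Most members stood close to the 2-fold threshold. The region fold, the log2 ratio of synarcual over post-synarcual, had a median of 1.21 at stage 33 (range 1.01 to 1.94) and of 1.25 at stage 28 (1.0002 to 3.46). At stage 33, 57 members lay between 1 and 1.25, 34 between 1.25 and 1.5 and 10 at 1.5 or above. At stage 28 the numbers were 49, 27 and 25. None reached 4-fold at stage 33, where 0 of the 7655 other features that passed the stage filter did either. At stage 28, 8 members reached it (7.92%), and so did 16 of the 7655 others (0.209%). The members had already been chosen for 2-fold or more at stage 28, so the rule largely sets this contrast and nothing is read from it. Summed over the members, scaled counts were 2.37-fold higher in the synarcual at stage 33 (95% counting interval 2.33 to 2.42) and 2.45-fold higher at stage 28 (2.41 to 2.49). Each member was chosen for 2-fold or more in these same counts, so the sums could not fall below that. The intervals do not cover this choice and are no test of the difference.

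The thresholds cut through a continuous range. The member nearest the stage 33 threshold had a region fold of 1.01, with 151 synarcual and 58 post-synarcual counts. The nearest feature left outside had 176 and 68 counts and a fold just under 1. At stage 28 the nearest member inside had 499 synarcual and 243 post-synarcual counts, a fold of 1.0002, and the nearest feature outside had 104 and 50 counts, a fold of 0.99. The member with the lowest deciding count had 50 counts in the stage 28 synarcual, and the nearest feature below the minimum there had 48. At stage 33 these deciding counts were 55 inside and 49 outside. Of the members with 200 counts or more, the one with the largest mean stage fold had 1.96 on the log2 scale, and the nearest feature left out had 2.02. In all, 40 members were within 0.1 of a fold threshold at some stage, and 27 features missed membership by less than 0.1 at 1 stage.

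At these counts an interval above a ratio of 1 follows from the rule, and all 101 members had one at both stages, against 10.3% of the 8206 features. An interval wholly above 2 is a stricter reading. It was reached by 29 members at stage 33 (28.7%, against 1.26% of the 8206 features) and by 41 at stage 28 (40.6%, against 1.40%). At both stages 16 members reached it, and these same 16 are the 0.195% of the 8206 features that did. An interval above 2 at both stages nearly implies the rule, so nothing is read from that share. The rule also asks for 2-fold or more at each single stage. It therefore largely sets the contrasts at stage 33 and at stage 28 alone, and nothing is read from those either. The 16 ranged from 593 to 6188 bp in length. For the other 85, the lower bound was 2 or less at 1 or both stages. Many of these intervals rest on low counts: the post-synarcual count was under 50 for 46 members at stage 33 and for 29 at stage 28. Of the 8206 features, the lower count of the pair was under 50 in 1275 at stage 33 and in 492 at stage 28. Those are smaller shares than in the members. The rule asks for a 2-fold difference within each pair, so it partly sets the low counts of the members.

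**Figure D2:**
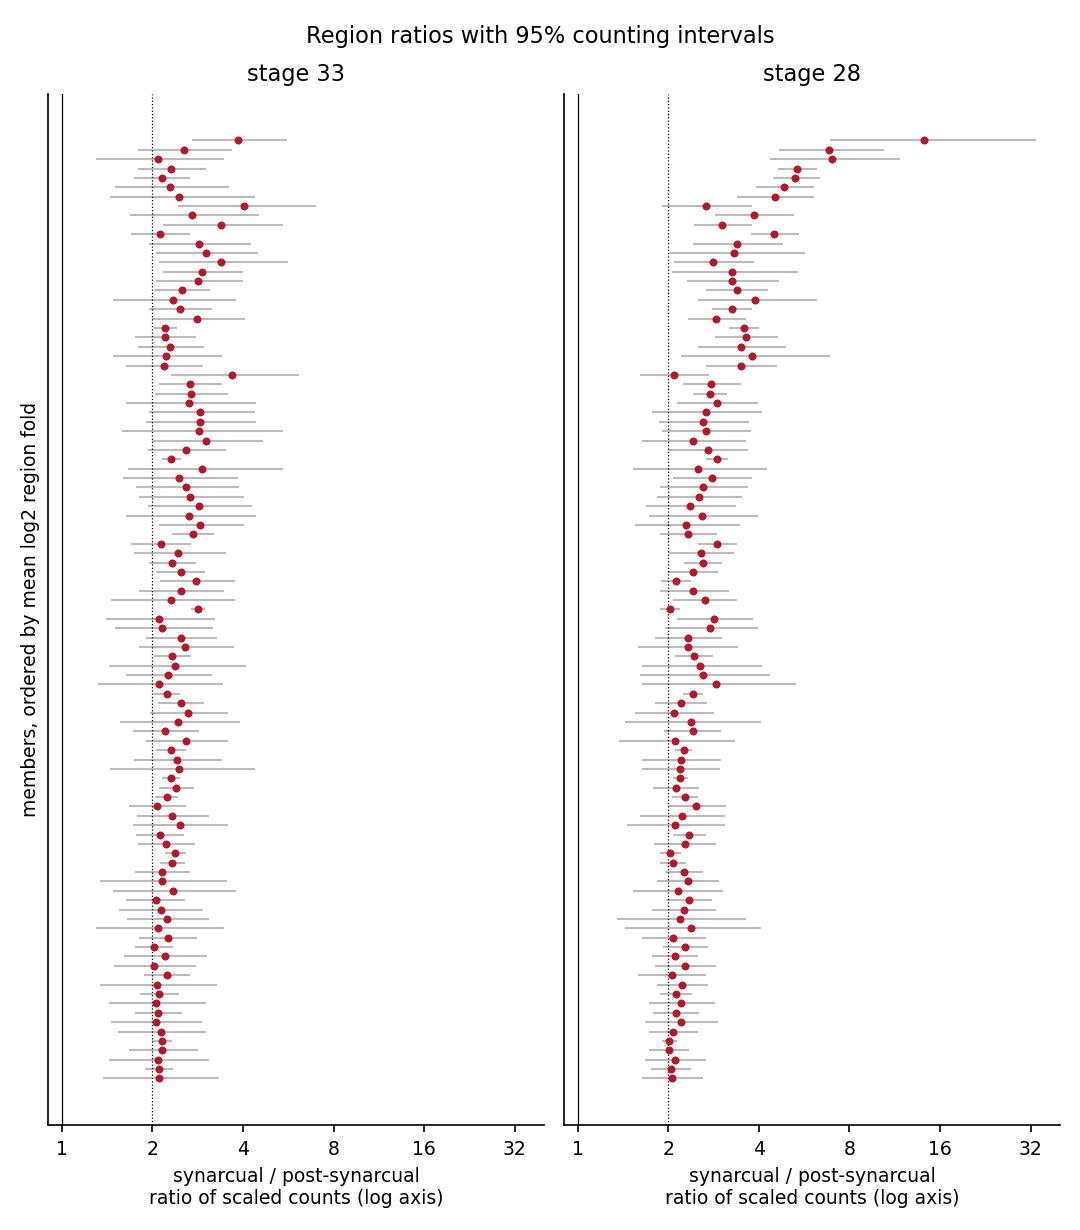
Each row is a member, ordered from the largest mean log2 region fold at the top, with the ratio of scaled counts in the synarcual over the post-synarcual (point) and its 95% counting interval (line) on a log axis, at stage 33 on the left and stage 28 on the right. The solid line marks a ratio of 1 and the dotted line a ratio of 2. Intervals clear of 2 are seen in 29 rows at stage 33 and 41 at stage 28, and the top row is the feature of 593 bp.

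The largest mean region fold belonged to TRINITY_DN23812_c0_g1, a feature of 593 bp. Its level was 168 TPM (a length-corrected share of a library's transcripts) in the stage 33 synarcual library and 30.1 TPM in stage 33 post-synarcual tissue, and 88.8 and 6.96 TPM at stage 28. Both synarcual libraries were above both post-synarcual libraries. The region folds were 1.91 (stage 33) and 3.46 (stage 28), and it was the 1 member whose excess was also 3-fold or more at both stages. Its stage 28 values rest on 115 synarcual and only 8 post-synarcual counts.

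The next largest was TRINITY_DN40644_c0_g1, of 2247 bp. It had 23.4 TPM in the stage 33 synarcual library and 6.47 TPM in post-synarcual tissue, and 31.7 and 5.08 TPM at stage 28. The synarcual values lay above the post-synarcual ones with no overlap. The region folds were 1.32 (stage 33) and 2.68 (stage 28).

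Members covered a wide range of levels. The median level was 28.9 TPM in the stage 33 synarcual library and 7.98 TPM in stage 33 post-synarcual tissue, and 33.3 and 14.5 TPM at stage 28. TPM does not set the bulk of features level. Log2 folds in TPM, here and below, were taken after 1 was added to each TPM value. In TPM the median log2 region fold of the 14668 features was 0.454 at stage 33 and -0.124 at stage 28. Relative to that median, the members stood higher in the synarcual by 1.185 at stage 33 and 1.193 at stage 28. In the stage 33 synarcual the range was 5.25 to 783 TPM, and in the stage 28 synarcual 4.15 to 933 TPM. Ranked among all features of a library, the median member stood at percentile 83.5 (synarcual) and 65.0 (post-synarcual) at stage 33, and at 82.4 and 62.9 at stage 28. The minimum count of the rule keeps low features out, so the high ranks are partly set by it.

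Together the members took 1.01% of the counts of the stage 33 synarcual (95% interval 0.998 to 1.02) and 0.306% of the post-synarcual (0.302 to 0.311). At stage 28 they took 1.19% (1.18 to 1.20) and 0.507% (0.5 to 0.514). These shares are not TMM-scaled. With total counts the median log2 region fold of the 14668 features was 0.449 at stage 33 and -0.057 at stage 28. A few features carried much of the members' abundance. The 5 most abundant members held 35.5% of the members' summed synarcual TPM and 34.7% of the post-synarcual TPM at stage 33, and 37.7% and 40.8% at stage 28. This was not particular to the members. In the 43 features of the opposite direction, a smaller set, the top 5 held 44.3% and 47.6% at stage 33, and 55.4% and 53.9% at stage 28. In 86 of the 101 (85.1%, against 11.5% of the 8206 features), both synarcual libraries were above both post-synarcual libraries in scaled counts. The rule asks for 2-fold at both stages and limits the stage difference, so it largely sets this share. In the other 15 the difference between stages was large enough for the regions to overlap.

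The member with the highest mean level was a feature of 1778 bp. It had 783 TPM in the stage 33 synarcual library and 238 TPM in post-synarcual tissue, and 814 and 407 TPM at stage 28. Its counts were 3535 and 1194 at stage 33 and 4160 and 1858 at stage 28. The ratio of scaled counts was 2.31 at stage 33 (2.16 to 2.47) and 2.19 at stage 28 (2.07 to 2.32). With TMM its region difference thus had nearly the same size at both stages. In TPM the difference was larger at stage 33. The next in level, a feature of only 239 bp with 599 and 157 TPM at stage 33 and 933 and 369 TPM at stage 28, is less certain. It shares its assembly component with 2 other features, its estimated counts are not all whole, and 91 and 29 counts at stage 33 and 177 and 62 at stage 28 stand behind its TPM values.

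**Figure D3:**
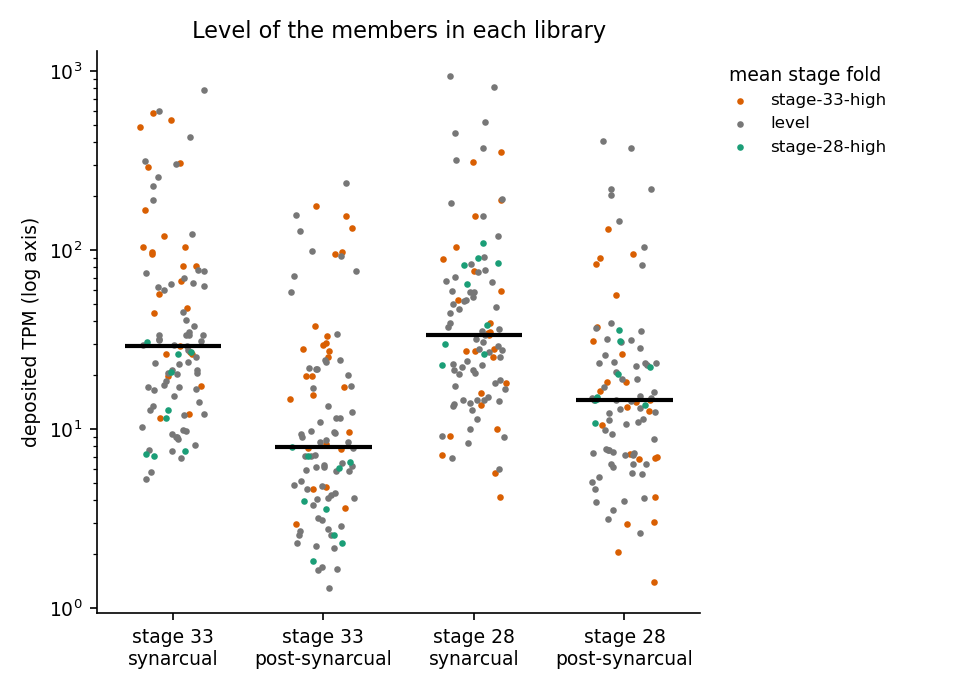
Points are the 101 members in each library, with deposited TPM on a log axis, black bars for the medians and colours for the class of mean stage fold (at least 1 log2 higher at stage 33, in between, or at least 1 log2 lower). The medians are 28.9 TPM in the stage 33 synarcual, 7.98 TPM in the stage 33 post-synarcual, 33.3 TPM in stage 28 synarcual and 14.5 TPM in stage 28 post-synarcual tissue.

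Between the stages the members moved in both directions. By mean stage fold over both regions, 25 members (24.8%) stood 2-fold or more higher at stage 33, against 10.7% of the features that passed the stage filter. At least 2-fold lower were 9 (8.91%), against 7.44%, and the other 67 lay in between. The range of this mean is limited by the rule, which removes large stage differences.

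In the synarcual, 29 of 101 members passed 2-fold upward at stage 33 (28.7%, against 18.5% of 10888 features) and 9 passed it downward (8.91%, against 16.1%). Those 10888 include the large stage differences that the rule took out of the members. In the 7655 other features that passed the stage filter the shares were 12.3% upward and 8.75% downward, so the downward share of the members was near that of filtered features. In the post-synarcual, 78 members reached 50 counts at one of the stages. Of these, 21 were higher at stage 33 (26.9%, against 15.8% of 10515 features) and 6 lower (7.69%, against 15.6%). Taken over all 101 members these are 20.8% and 5.94%, against 10.3% and 8.36% of the 7655. In both regions together, 19 of the 78 were higher (24.4%, against 12.2% of 10024) and 5 lower (6.41%, against 10.4%). Over all 101 these are 18.8% and 4.95%, against 5.93% and 4.78% of the 7655. The median log2 stage fold of the members was 0.33 in synarcual and 0.47 in post-synarcual tissue. With libraries scaled to their total counts it turned to -0.41 and -0.75, and in TPM to -0.06 and -0.45. Those scalings moved the median of the 14668 features to -0.73 and -1.25 and to -0.37 and -0.96. Relative to that median, the members stood higher at stage 33 by 0.32 (synarcual) and 0.50 (post-synarcual) with total counts, by 0.31 and 0.51 in TPM and by 0.35 and 0.50 with TMM.

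**Figure D4:**
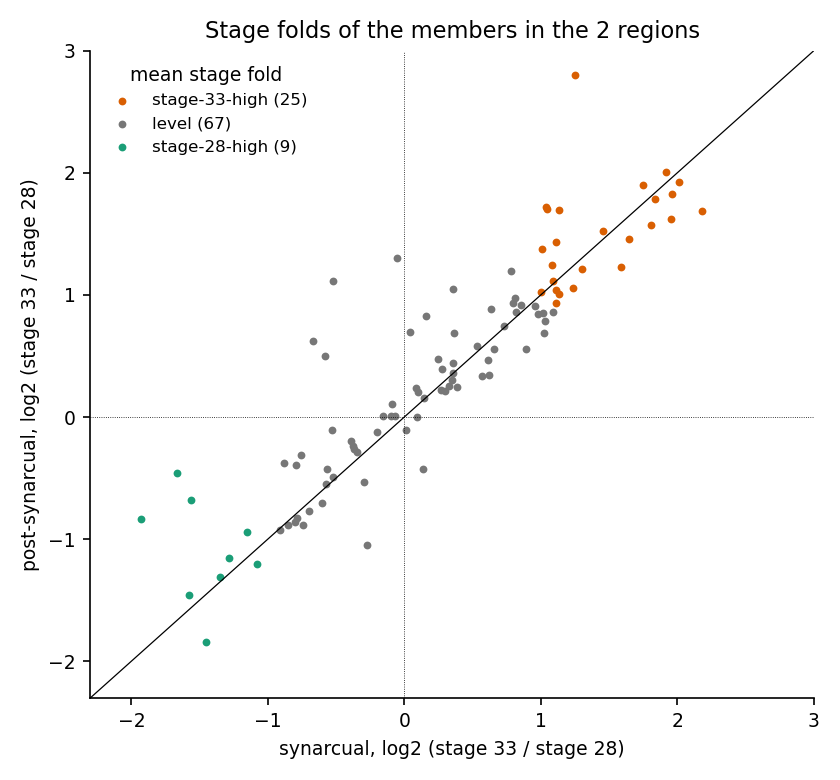
Each point is a member, with its log2 ratio of stage 33 over stage 28 in the synarcual on the x axis and in the post-synarcual on the y axis, coloured by the class of mean stage fold. The diagonal marks equal stage folds, and points above it are members whose region difference was smaller at stage 33. The classes hold 25, 67 and 9 members.

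The highest mean stage fold was that of TRINITY_DN23812_c0_g1, at 2.03 on the log2 scale. It stayed a member because its largest count, 188, was under 200. Its stage fold was 1.25 in synarcual and 2.80 in post-synarcual tissue. The post-synarcual value rests on 38 counts at stage 33 and 8 at stage 28, a ratio of 8.8 (4.04 to 21.8). With a prior count of 5 its mean stage fold was 1.83, and its order with the next member was reversed. The next was TRINITY_DN37547_c0_g1, of 908 bp, with 81.1 TPM in the stage 33 synarcual against 25.1 TPM in the stage 28 synarcual, and 25.2 TPM in the stage 33 post-synarcual against 12.6 TPM in the stage 28 post-synarcual. Scaled counts of this feature were 4.17-fold higher at stage 33 in the synarcual (3.07 to 5.73) and 4.06-fold higher in the post-synarcual (2.51 to 6.73), and its region ratio was 2.24 at stage 33 (1.65 to 3.09) and 2.18 at stage 28 (1.35 to 3.61).

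In the other direction, TRINITY_DN46014_c1_g1, the longest member at 11238 bp, had 7.28 TPM in the stage 33 synarcual against 26.3 TPM in the stage 28 synarcual. In the post-synarcual it had 1.83 TPM at stage 33 against 13.6 TPM at stage 28. Its stage 28 post-synarcual level was above its stage 33 synarcual level, so the regions overlapped across stages. Its mean stage fold was -1.65 on the log2 scale. TRINITY_DN41987_c1_g1, of 3781 bp, had 7.51 TPM in the stage 33 synarcual against 29.8 TPM in the stage 28 synarcual, and 2.56 TPM against 14.7 TPM in the post-synarcual. Its mean stage fold was -1.52, and the region folds were 1.02 (stage 33) and 1.14 (stage 28). With total counts the mean stage folds were 1.10 for TRINITY_DN23812_c0_g1, 1.01 for TRINITY_DN37547_c0_g1, -2.64 for TRINITY_DN46014_c1_g1 and -2.49 for TRINITY_DN41987_c1_g1, with the direction of each kept.

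The 25 members higher at stage 33 had a median of 81.1 TPM in the stage 33 synarcual library and 19.8 TPM in stage 33 post-synarcual tissue, and 33.6 and 14.1 TPM at stage 28. The 9 that were lower had 12.8 and 3.94 TPM at stage 33, and 64.6 and 15.1 TPM at stage 28. The median region fold at stage 33 was 1.21 in the members higher at stage 33 and 1.20 in those lower, and at stage 28 it was 1.17 and 1.45.

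In 11 members (10.9%, against 20.6% of the 8206 features) the stage fold had opposite signs in the 2 regions. The rule bears on this share, since the difference between the stage folds equals that between the region folds. In 3 of the 11 both counting intervals stood clear of a ratio of 1 (2.97%, against 3.55% of the 8206 features).

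In 69 of 101 members (68.3%, against 38.4% of the 8206 features) the 2 region folds were within 0.25 of each other on the log2 scale, and in 84 within 0.5 (83.2%, against 66.4%). Both folds were chosen to be at least 1 and most lie just above it, so this closeness follows in part from the rule and nothing is read from it. Across members the folds of the 2 stages correlated weakly (Pearson r = 0.19, Spearman rho = 0.20, n = 101), over a range that the rule cuts off at 1, and members measured in the same 4 libraries are not independent. The fold was larger at stage 33 in 43 members (42.6%, against 50.9% of the 8206 features) and larger at stage 28 in 58 (57.4%, against 49.1%). It was larger at stage 28 by at least 1 on the log2 scale in 7 members (6.93%, against 3.64% of the 8206 features), and by that much at stage 33 in 0 members (against 5.58%). The second count had to be 0, since no member had a stage 33 fold of 2 or more.

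In those 7 members the region folds had medians of 1.16 (stage 33) and 2.41 (stage 28). The widest gap was in a feature of 560 bp, with 65.3 TPM in the stage 33 synarcual library and 21.6 TPM in post-synarcual tissue, at 67 and 25 counts. Its stage 28 counts were 143 (synarcual) and 20 (post-synarcual). Its region ratio was 2.09 at stage 33 (1.30 to 3.46) and 7.00 at stage 28 (4.37 to 11.8). The feature was picked for this gap and the intervals cover counting error only, so they are no test of it. TRINITY_DN23812_c0_g1 had the next widest gap, of -1.55.

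Among members with a larger fold at stage 33, the gap was widest in a feature of 4313 bp. Its synarcual and post-synarcual counts were 104 and 22 at stage 33 and 186 and 87 at stage 28. The ratio was 3.69 at stage 33 (2.31 to 6.14) and 2.09 at stage 28 (1.61 to 2.73), with overlapping intervals. A feature of 2897 bp followed, with a ratio of 4.02 at stage 33 (2.44 to 6.97) and 2.67 at stage 28 (1.91 to 3.80). With total counts, 2 members had the larger fold at stage 28 by at least 1 log2 and 3 at stage 33, so the balance between the stages rests on the scaling.

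In properties that the rule did not use, the members were set beside the other features with enough counts that passed the stage filter. Their median length was 2545 bp, against 2511 bp in the 7655 others, with 8 members (7.92%) under 1000 bp, against 8.91%. The assembly gave 77 members 1 transcript, 18 members 2 and 6 members 3 or more. Features with more than 1 transcript made up 23.8% of the members and 26.6% of the 8206 features. Deposited lengths are weighted by the abundance of a feature's transcripts, so a shift between transcripts of unequal length moves them. A length difference of more than 10% between the regions was found in 0.990% of the 101 members at stage 33 and in 0 at stage 28. Among the 8206 features, those of 1 transcript included, it was found in 3.02% and 2.56%. In 23 of the 24 members with more than 1 transcript, the length differed by at most 10% between synarcual and post-synarcual at both stages. The exception, a feature of 2032 bp with 4 transcripts, was 17.7% longer in the synarcual at stage 33 and had a length change of -9.54% at stage 28, so it moved in opposite directions at the 2 stages.

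For 12 members (11.9%, against 13.6% of the 8206 features) the assembly component held a second feature or more, and reads of a gene or of its close copies can be divided among these. These 12 had 13 partners, of which 4 had enough counts at both stages. Of these 4, 2 are members themselves, with folds set by the rule. The other two, of 1543 and 7540 bp, had region folds of 0.71 and 1.31 at stage 33 and 0.17 and 0.83 at stage 28. Of the 9 partners with fewer counts, 3 had a fold below 0 at 1 stage or both, and the others had folds of 0 or above at both. A partner of 3115 bp had -0.50 at stage 33 and -0.35 at stage 28. One of 4959 bp had 0.99 and -0.66, with 17 synarcual and 6 post-synarcual counts at stage 33, and 65 and 102 at stage 28. The third, of 221 bp, had only 0 synarcual and 2 post-synarcual counts at stage 33, too few for a fold. At stage 28 its counts were 40 and 3. A pair of members of 583 and 1139 bp are each other's partners. At stage 33 the shorter had 133 synarcual and 42 post-synarcual counts and the longer 319 and 112. At stage 28 the counts were 95 and 44 in the shorter and 234 and 101 in the longer. Their region folds were 1.28 and 1.14 at stage 33 and 1.04 and 1.16 at stage 28, so both pieces showed nearly the same difference. They share a component, so they are not independent. The members of 239 and 594 bp also belong to 1 assembly cluster, in different components. Counts that were not whole in some library, which can arise where reads fit more than 1 feature, were found in 3 members (2.97%, against 3.16% of the 8206 features).

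The 43 features of the opposite direction, chosen by the same rule, give a measure of how far the 2 directions differ. Their region folds had medians of -1.29 (stage 33) and -1.64 (stage 28), and 17 of them (39.5%) were at least 4-fold apart at stage 28, against 8 of the 101 members. Their median mean stage fold was 1.57, against 0.36 in the members and 0.02 in the 7655 others. At least 2-fold higher at stage 33 by this mean were 28 of the 43 (65.1%), against 25 of the 101. In median length the sets were close, at 2545 bp for the members and 2478 bp for the 43. The difference between the sets was not tested, since features of 1 library are not replicates, and most features of the opposite direction had been left out by the stage filter.

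**Figure D5:**
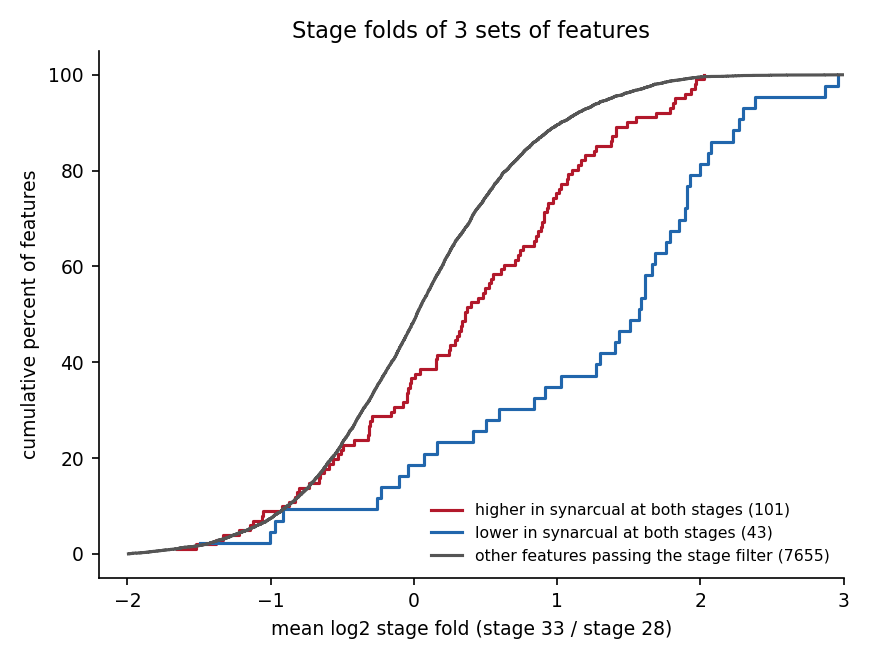
Lines give the cumulative percent of features (y axis) up to each mean log2 stage fold, stage 33 over stage 28 (x axis), for the 101 members (red), the 43 features lower in the synarcual at both stages (blue) and all 7655 features other than members that passed the stage filter, which include the 43 (grey). The medians are 0.36, 1.57 and 0.02.

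Membership changes with the scaling, most with total counts and in TPM. With total counts the rule finds 124 features, of which 78 are among the 101, and in TPM it finds 103, of which 66 are. With DESeq2 size factors it finds 90, all among the 101. Upper-quartile factors give 101 features, of which 99 are shared, and TMM without the low-count filter gives 98, of which 93 are shared.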

How the data were processed

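Per the file headers, the authors' tables list an estimated count (expected_count), TPM and FPKM of every assembled gene, 1 table a library. The submitters' processing notes name Bowtie2 and RSEM (versions, filters and assembly settings: not given in the sources used here). Per the labels' protocols the kit was unstranded, so reads of a transcript and of one antisense to it are pooled. A further deposited table, of the whole series, held the same estimated counts, with a largest difference of 0. The deposited TPM values are length-corrected and sum to the same total per library. The deposited FPKM values were not used. Deposited lengths are in bases.

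Estimated counts were rounded (1.66% to 1.89% of values per library were not whole). TMM factors came from edgeR 4.0.16 in R 4.3.3 over the 14668 features that reached 10 counts in at least 2 libraries. Log2 CPM used a prior count of 2, and ratios of scaled counts have exact 95% intervals (Clopper-Pearson, scipy 1.17.1). The rule and intervals were also run on simulated data. No outcome of that run is given here, so nothing is read from it about members near a threshold or with low counts. If a count stands for 1 read and not a pair, intervals are too narrow.

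Members, classes and comparisons were chosen with earlier results of these data known. Identifiers are printed for the 2 members with the largest mean region fold and the 2 with the highest and 2 with the lowest mean stage fold. Members described by length alone are the 2 with the highest mean TPM, the 2 at each end of the difference between stages and those nearest a threshold. Others were singled out after their values were seen. Planned lists of tissue markers were not applied, since no feature has a name. Alternatives were other scalings (DESeq2 1.42.0 size factors, upper quartile, total counts, TPM + 1), no filter, other prior counts, no rounding, and other thresholds.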

Additional observations from a re-analysis of the deposited data

Results flagged for a closer look

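In 3 members the stage difference ran in opposite directions in the 2 regions, with counting intervals on opposite sides of a ratio of 1. These are 2.97% of the 101 members, near the 3.55% of the 8206 features, so nothing is read from the share. The difference between the stage folds equals that between the region folds, on which the rule bears. Whether the regions differ in stage fold was not tested. A feature of 1799 bp had a log2 stage fold of -0.67 (synarcual) and 0.62 (post-synarcual), with 339 counts at stage 33 against 795 at stage 28 in the synarcual, and 123 against 147 in the post-synarcual. A feature of 560 bp had -0.52 and 1.12, with 67 against 143 counts and 25 against 20. A feature of 5896 bp had -0.58 and 0.50, with 302 against 667 counts and 111 against 145. With libraries scaled to total counts, all 3 were negative in both regions (post-synarcual values -0.62, -0.05 and -0.75), and in TPM the feature of 560 bp alone kept opposite signs (-0.87 and 0.18).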

How the results depend on the processing

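The number of members was 67 with a minimum count of 100, 333 at 1.5-fold and 1 at 3-fold, against 101, and within 1.5 times 101 under the other 10 alternatives. The 43 features of the opposite direction became 22 in TPM, of which 12 were among the 43. With total counts they became 29, of which 16 were among the 43. They became 87 and 19 with minimum counts of 20 and 100, 146 at 1.5-fold, 9 at 3-fold and 143 without the stage filter. Members at least 2-fold higher at stage 33 in the synarcual (29) were 8 with total counts, 19 with upper-quartile factors and 11 in TPM, and those lower (9) were 32 with total counts and 18 in TPM. In the post-synarcual the higher members (21) were 0 with total counts and 0 in TPM, and the lower (6) were 40 and 31. The median stage fold of the members turned negative with total counts (-0.41 in the synarcual, -0.75 in the post-synarcual) and in TPM (-0.056 and -0.445), and was positive under the other 6 alternatives. The median region fold of the members at stage 33 (1.208) was 1.665 with total counts and 1.639 in TPM. At stage 28 (1.252) it was 1.203 and 1.068. Members with a region fold larger at stage 28 by at least 1 log2 (7) were 2 with total counts and 2 in TPM, and those larger at stage 33 (0) were 3 and 2. The lower median of all features under these 2 scalings moves with the stage values; other causes were not tested. No paired analysis was possible because each group has 1 library, and the count columns of all 4 carry the same replicate number, 1. No library could be left out, since the rule needs all 4. Depth limits single members: the median half-width of their log2 interval was 0.46 for the region fold at stage 33 and 0.36 at stage 28.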
